A study of Mus musculus with 6 samples.

Results

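The genes described here are the immunoglobulin variable gene segments of the mouse that were detected in 6 RNA-seq libraries labelled as sorted blood basophils. All genes whose symbol starts with Ighv, Igkv or Iglv and that had 10 or more counts in at least 1 library were taken, which gave 157 of the 348 annotated V segments in a table of 55401 genes. Of the 157 segments, 66 belong to the heavy chain locus (Ighv), 88 to the kappa light chain locus (Igkv) and 3 to the lambda light chain locus (Iglv). The segments were thus chosen by their counts in these same libraries, so numbers of segments, their shares and their sharing between libraries are descriptions and carry no test.

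Sample titles name 2 sets, A and B, with 3 libraries each. Per the labels' protocols, atopic-dermatitis-like disease was induced in mice by MC903, a vitamin D analogue, at 2 nmol in 10 µL of ethanol on both ears, given daily between day 0 and day 6, while ethanol alone served as the control. The labels do not say which set received MC903, so A and B are compared only as sets. All mice are labelled WT, with strain, sex and age not given in the sources used here, and the protocol speaks of pooled RNA without saying whether mice were pooled. The labels give blood as the tissue, while the design text names ear skin. Cells were sorted as live CD45+Lin-CD49b+FcεRIα/IgE+, and cDNA was amplified with Smart-seq2, a full-length method without molecular identifiers. The descriptions also name 10x Genomics. Total counts ran from 46137963 to 63956911 per library, against a stated yield of about 1000000 reads per sample, and 6678 to 12264 genes had 10 or more counts in a library.

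Set A did not match its basophil label. Fcer1a, the alpha chain of the high-affinity IgE receptor used in the sort, had 4, 0 and 0 counts in A1, A2 and A3 and 10736, 5584 and 2681 counts in B1, B2 and B3. The summed level of 8 basophil genes was 39.6 to 269 CPM (counts divided by the library total and scaled per 1000000) in set A and 1424 to 3166 CPM in B, and that of 8 neutrophil genes was 2254 to 9700 CPM in set A and 12171 to 22684 CPM in B. Like Fcer1a, the basophil genes Mcpt8, Prss34, Cpa3, Cd200r3 and Hdc were higher in each B library. Hdc made up most of the basophil sum in A (38.0, 62.2 and 267 CPM). Ms4a2 overlapped (0, 629 and 0 counts in A, 949, 1226 and 65 in B), and Itga2 was at 0 in all of A and in B3. B lineage genes were present in every library: 20 of 20 listed genes reached 10 counts somewhere, and their sum was 2491 to 3891 CPM in set A and 2762 to 3657 CPM in B, which overlap. In edgeR's quasi-likelihood test with Benjamini-Hochberg adjustment, 0 of 18 tested B lineage genes passed the threshold of 0.05, with 0 at an unadjusted p under 0.05. Over all genes that fit called 2 of 9196, or 0.0217%. The other tools run called 0 (limma-voom) and 1 lower in B (DESeq2) of the B lineage genes. Over all genes DESeq2 called 12.0% higher and 1.1% lower in B, and limma-voom 2.82% higher and 0.0761% lower.

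An antibody chain is assembled in a B cell by DNA recombination. A V segment is joined to a J segment (in the heavy chain also to a D segment), and splicing then links the joined exon to a constant region. Each B cell therefore transcribes mainly 1 heavy and 1 light chain V segment, so the number of V segments in a library and the evenness of their counts describe how varied its immunoglobulin transcripts were. In mice most B cells carry kappa light chains and fewer carry lambda, and naive B cells make IgM and IgD. Basophils are not known to rearrange these loci. In bulk libraries, fewer cells of a type and less RNA per cell cannot be told apart.

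The V segments that recur between libraries are introduced by their 3′ ends, the part of the segment that is joined to D or J. In 12 segments counts reached 10 in every library. Their last 60 annotated bases are given 5′ to 3′, with the last in-frame cysteine codon, the conserved residue before the third complementarity-determining region, in capitals (GENCODE M21 annotation and transcripts on GRCm38). For the counts, the build was not given in the sources used here.
Iglv1 (chr16:19085017-19085500, minus strand): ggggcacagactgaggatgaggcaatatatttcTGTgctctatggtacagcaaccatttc
Igkv1-135 (chr6:67609713-67610508, plus strand): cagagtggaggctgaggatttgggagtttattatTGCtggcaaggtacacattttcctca
Igkv10-94 (chr6:68704508-68704978, minus strand): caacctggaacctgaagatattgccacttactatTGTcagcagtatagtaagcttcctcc
Igkv10-96 (chr6:68631963-68632442, minus strand): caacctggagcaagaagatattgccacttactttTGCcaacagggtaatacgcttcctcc
Igkv12-44 (chr6:69814631-69815154, minus strand): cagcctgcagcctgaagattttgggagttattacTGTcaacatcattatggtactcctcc
Igkv13-84 (chr6:68939602-68940067, plus strand): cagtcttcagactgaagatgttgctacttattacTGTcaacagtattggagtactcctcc
Igkv4-91 (chr6:68768555-68769103, minus strand): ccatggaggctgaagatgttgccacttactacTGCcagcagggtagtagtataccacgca
Igkv6-15 (chr6:70406469-70406992, minus strand): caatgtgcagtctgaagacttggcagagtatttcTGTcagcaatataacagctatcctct
Igkv6-17 (chr6:70371439-70371993, plus strand): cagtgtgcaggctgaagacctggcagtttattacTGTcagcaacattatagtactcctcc
Igkv6-23 (chr6:70260409-70260955, minus strand): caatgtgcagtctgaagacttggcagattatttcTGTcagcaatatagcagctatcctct
Igkv6-25 (chr6:70215400-70215957, plus strand): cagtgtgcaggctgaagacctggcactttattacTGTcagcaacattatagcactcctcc
Igkv9-120 (chr6:68049983-68050456, plus strand): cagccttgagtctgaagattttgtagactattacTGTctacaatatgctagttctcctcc
In 10 of the 11 kappa segments 23 bases follow that codon, in Igkv4-91 25 and in Iglv1 24.

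The heavy chain segments with the highest count of any library are shown in the same way, since they differ from library to library.
Ighv1-9 (chr12:114583569-114584002, minus strand): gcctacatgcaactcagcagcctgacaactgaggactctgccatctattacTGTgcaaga
Ighv1-59 (chr12:115335082-115335514, minus strand): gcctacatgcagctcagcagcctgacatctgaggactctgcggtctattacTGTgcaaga
Ighv1-64 (chr12:115507545-115508031, minus strand): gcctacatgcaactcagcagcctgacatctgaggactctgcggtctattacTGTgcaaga
Ighv5-4 (chr12:113597446-113597977, minus strand): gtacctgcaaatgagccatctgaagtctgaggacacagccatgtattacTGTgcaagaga
Ighv9-3 (chr12:114140692-114141122, minus strand): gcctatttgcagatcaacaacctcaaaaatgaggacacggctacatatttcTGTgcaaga
These heavy segments end 6 bases after the cysteine codon, or 8 in Ighv5-4.

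Many segments are close copies of one another, which bears on how firmly a count belongs to 1 of them. Over the last 280 bases, 154 segments could be compared with the other annotated V segments of their locus that were at least 280 bases long. The median identity to the nearest was 95.4%. In 85 of the 154 (55.2%) the identity was at least 95%, in 14 at least 98%, and Ighv1-71 and Ighv1-62-2 were identical. Iglv1 and Iglv2 are 97.5% identical, with 7 differences in 280 bases. A stretch of 120 bases of each, starting 153 bases before the end, holds 4 of these differences, in capitals.
Iglv1 (chr16:19085017-19085500, minus strand): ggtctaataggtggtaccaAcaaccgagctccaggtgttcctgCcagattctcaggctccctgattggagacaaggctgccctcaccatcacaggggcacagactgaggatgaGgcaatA
Iglv2 (chr16:19260401-19260859, minus strand): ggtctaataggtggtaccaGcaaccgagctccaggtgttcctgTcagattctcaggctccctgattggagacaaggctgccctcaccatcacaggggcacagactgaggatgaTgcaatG
The authors' treatment of reads that fit more than 1 segment was not given in the sources used here. Counts of near-identical segments are uncertain for that reason.

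The 3 members of the Igkv10 family show the same point in the kappa locus. Together they differ at 21 of 280 positions, 14 of which lie in the 120 bases shown, which start 132 bases before the end, in capitals.
Igkv10-96 (chr6:68631963-68632442, minus strand): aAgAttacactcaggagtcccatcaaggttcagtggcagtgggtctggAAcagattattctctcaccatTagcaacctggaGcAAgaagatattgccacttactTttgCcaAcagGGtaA
Igkv10-94 (chr6:68704508-68704978, minus strand): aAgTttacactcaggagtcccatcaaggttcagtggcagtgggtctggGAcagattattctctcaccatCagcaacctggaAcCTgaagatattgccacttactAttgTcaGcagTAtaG
Igkv10-95 (chr6:68680379-68680848, plus strand): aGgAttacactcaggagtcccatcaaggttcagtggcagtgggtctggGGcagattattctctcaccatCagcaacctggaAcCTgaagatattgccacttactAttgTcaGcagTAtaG
Igkv10-95 is 97.1% identical to Igkv10-94, and its counts were low (38, 40 and 8 in set A and 14, 20 and 8 in B) beside those of Igkv10-96 (5699, 6004 and 51 in set A and 4547, 2911 and 3268 in B).

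More V segments were found in each library of set B than in any of set A. At 10 or more counts there were 46, 46 and 60 segments in A1, A2 and A3 and 80, 91 and 118 in B1, B2 and B3, or 50.7 ± 8.08 and 96.3 ± 19.6 (SD, n = 3 each). The sets do not overlap. Both main loci showed this order: 12, 12 and 15 heavy segments in A against 22, 31 and 47 in B, and 32, 32 and 43 kappa segments in A against 55, 57 and 68 in B. All 3 lambda segments were found in each B library and 2 of 3 in each A library.

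Libraries with more V segments mostly had more genes of all kinds, except that A3 had more genes than B1 and fewer segments. Genes with 10 or more counts numbered 6678, 7396 and 8835 in set A and 8611, 10078 and 12264 in B. V segments made up 0.689%, 0.622% and 0.679% of these genes in set A and 0.929%, 0.903% and 0.962% in B, which do not overlap either. The part that gene detection plays in the number of segments was not tested. T cell receptor V segments, the other large family of rearranging segments, showed no such order, with 7, 12 and 13 segments in set A and 11, 7 and 16 in B out of 46 detected of 170 annotated. Their summed level was 192, 157 and 172 CPM in set A and 152, 60.2 and 54.8 CPM in B. That of 10 T cell genes was 871 to 1159 CPM in set A and 288 to 496 CPM in B. Both sums were lower in each B library. Among single genes, Cd3d, Trac and Cd8b1 were lower in each B library, while Cd3e, Cd3g, Trbc1, Trbc2, Cd8a and Lat overlapped. Of the 9 tested, edgeR and limma-voom called 0. At an unadjusted p under 0.05 in edgeR 2 were lower (Trac and Cd8b1) and 0 higher in B. Over all tested genes these shares were 1.32% lower and 5.05% higher. DESeq2 called 1 lower in B, beside 1.1% of all genes with an adjusted p.

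**Figure D1:**
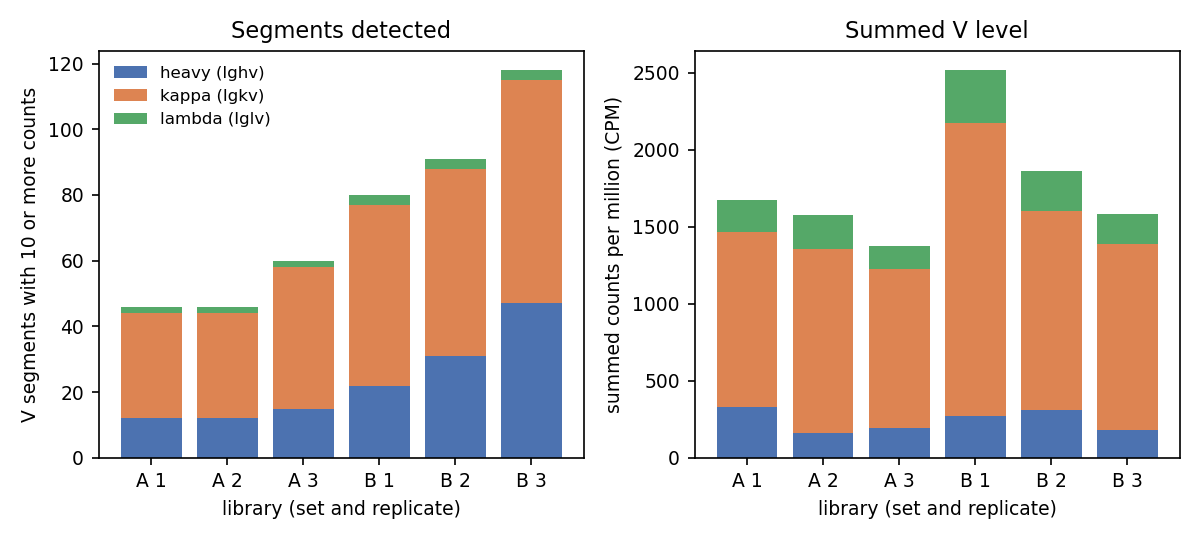
Number of V segments with 10 or more counts in each library, by locus, and the summed V segment level of each library in CPM. Segment numbers are 46 to 60 in the A libraries and 80 to 118 in the B libraries, while the summed levels overlap between sets.

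The summed level of V segment transcripts overlapped between the sets. V segments summed to 1673, 1577 and 1378 CPM in A (1543 ± 151, SD, n = 3) and to 2516, 1860 and 1580 CPM in B (1986 ± 480, SD, n = 3), with B3 at the level of A2. Kappa segments took the largest share, 67.7%, 75.6% and 75.0% of V counts in set A and 75.8%, 69.5% and 76.3% in B. Heavy segments took 19.8%, 10.2% and 14.1% in set A and 10.7%, 16.8% and 11.6% in B. Lambda segments held 12.6%, 14.2% and 11.0% in set A and 13.5%, 13.7% and 12.1% in B. V segments and constant regions together were 0.525% to 0.845% of all counts of a library.

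Detection was close to all or none. Of 942 values of a segment in a library, 427 were 0, 74 were 1 to 9, 39 were 10 to 99 and 402 were 100 or more, and the median of the values at or above 10 was 808 counts. Just inside the limit of 10 were Igkv4-77 (highest count 24), Ighv12-1 (30) and Igkv10-95 (40), and just outside were Ighv8-6 (9), Igkv4-71 (7) and Igkv8-26 (2, as in 2 other segments). Over all annotated V segments 82 values lay between 1 and 9, of which 74 were in a segment that reached 10 in another library. Of the 82 values 70 were even, and the reason was not tested. Amplified copies count as separate reads here, so a high count need not come from many RNA molecules.

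The 149 detected segments annotated as functional were 69.0% of the 216 such segments, while 8 of 130 annotated pseudogenes (6.15%) were detected and held 0.524% of the members' counts. The pseudogenes were Ighv1-73, Ighv12-1, Ighv4-2 and Ighv5-7 in the heavy locus and Igkv12-40, Igkv12-49, Igkv2-95-2 and Igkv4-77 in the kappa locus. Kappa segments were found more fully than heavy ones: 84 of 100 functional Igkv segments (84.0%) against 62 of 113 functional Ighv segments (54.9%). All 3 Iglv segments were found.

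**Figure D2:**
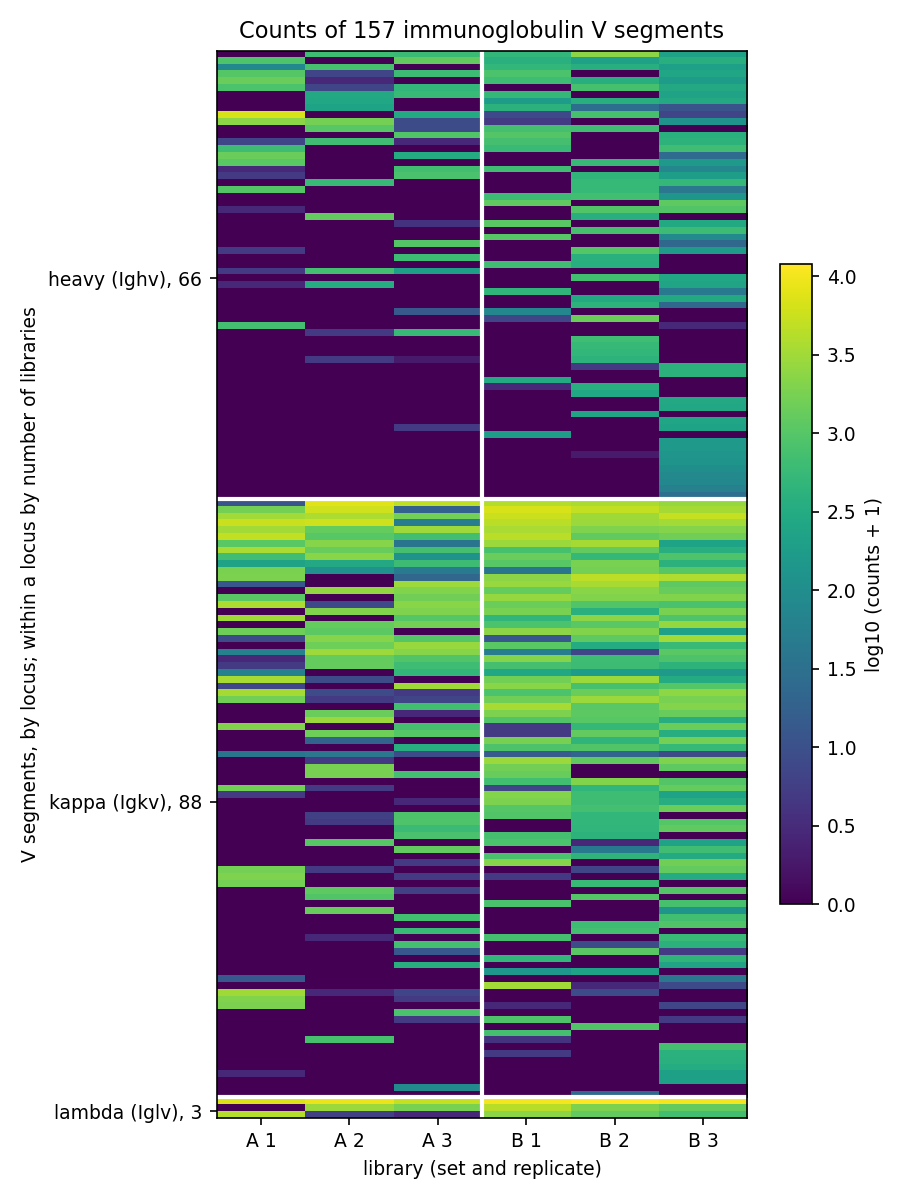
Heat map of the counts of the 157 V segments (rows, by locus and then by the number of libraries that hold them) in the 6 libraries (columns), coloured by log10 (counts + 1) from dark, 0, to yellow, the highest. Dark cells are 427 values of 0, the B columns hold fewer of them than the A columns, and Iglv1, the first lambda row, is bright in all 6 libraries.

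A single segment, Iglv1, had the highest V count in every library. Its counts were 7309, 8921 and 5146 in set A and 10132, 11957 and 10237 in B, or 7.93%, 10.7% and 8.10% of V counts in set A and 8.09%, 10.9% and 10.1% in B. The 95% Wilson intervals of these shares were at most 0.212 points wide to either side. They cover counting error only and take each count as independent, which amplified copies are not. Transcript lengths of the segments ran from 222 to 501 bases with a median of 359, and per kb Iglv1 was first in 5 of 6 libraries, with Ighv1-9 first in A1. In edgeR's fit Iglv1 had a log2 fold change of 0.34 (SE 0.42, adjusted p = 1.00) between B and A.

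Behind Iglv1 the order changed from library to library, and counts were less concentrated in the top segments in B than in A. The top 3 segments held 21.5%, 27.2% and 20.6% of V counts in set A and 18.1%, 19.7% and 19.1% in B (23.1 ± 3.59% and 19.0 ± 0.816%, SD, n = 3 each). For 50% of V counts 10, 9 and 11 segments were needed in set A and 15, 16 and 17 in B. The inverse Simpson number, the number of equally abundant segments that would give the same concentration, was 26.2, 22.1 and 30.0 in set A and 37.9, 35.4 and 38.0 in B. None of these 3 measures overlapped between the sets, nor did the numbers of segments behind them, given above. All 3 depend on the number of segments found, so evenness for a given number of segments cannot be read from them.

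**Figure D3:**
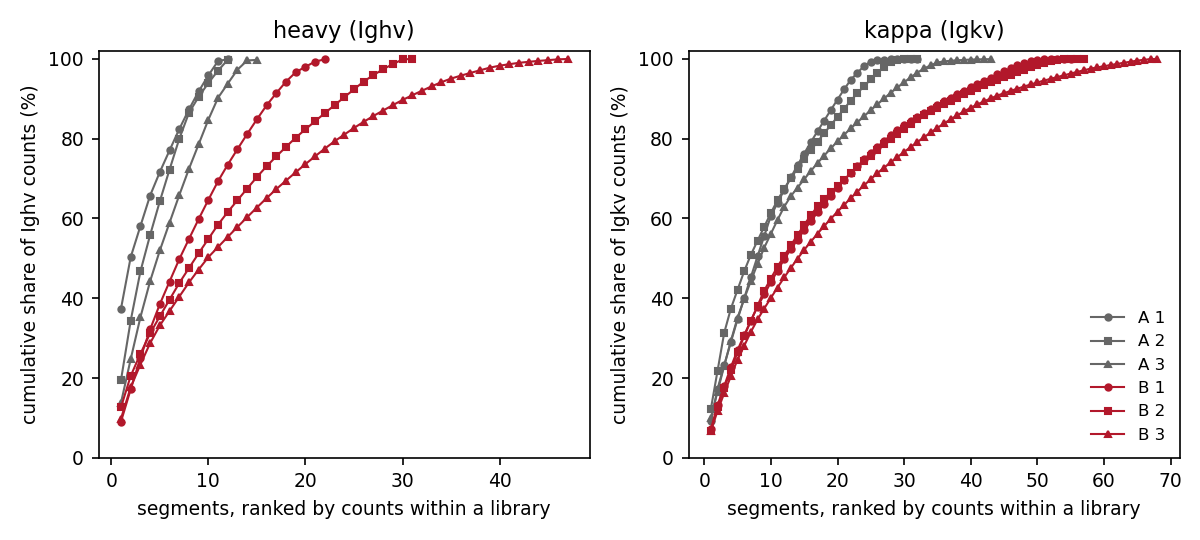
Cumulative share of heavy (left) and kappa (right) V counts in percent against the rank of the segment in its library, 1 line per library, A in grey and B in red. The A lines climb faster: the top 3 segments hold 35.2% to 58.1% of heavy and 23.0% to 31.3% of kappa counts in A, against 23.4% to 26.1% and 16.2% to 18.0% in B.

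Heavy chain counts were more concentrated in the top segments than kappa counts, with fewer heavy than kappa segments found in every library. Evenness for a given number of segments was not measured. Each A library was led by another heavy segment. In A1 Ighv1-9 held 37.4% of heavy V counts (6811 counts), in A2 Ighv1-59 19.5% (1650 counts) and in A3 Ighv1-64 13.8% (1233 counts). In B1 and B3 Ighv5-4 led with 9.08% (1214 counts) and 9.82% (1153 counts), and in B2 Ighv9-3 led with 12.7% (2340 counts). The top 3 heavy segments held 58.1%, 46.7% and 35.2% of heavy counts in set A and 25.0%, 26.1% and 23.4% in B, with no overlap. The intervals of the leading shares were at most 0.844 points wide to either side.

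The leading heavy segment of 1 library was often low or at 0 in the next. Ighv1-9 had 6811, 0 and 313 counts in set A and 7, 775 and 6 in B. Ighv1-59 had 2352, 1650 and 8 counts in set A and 4, 0 and 122 in B. Ighv5-4, the leader in B1 and B3, was at 0 in all A libraries and in B2. By contrast, Ighv1-64 (899, 0 and 1233 counts in A, 385, 214 and 365 in B) and Ighv9-3 (0, 651 and 591 in A, 491, 2340 and 215 in B) reached 10 counts in 5 libraries. Ighv1-59, Ighv1-9, Ighv1-64 and Ighv9-3 entered edgeR's fit, with log2 fold changes of -5.33 (SE 3.23), -3.54 (SE 3.38), -1.42 (SE 2.46) and 1.00 (SE 2.50) and an adjusted p of 1.00 each.

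Kappa counts were less concentrated in the top segments, and a few kappa segments led in several libraries. Igkv6-23 led A2 with 12.2% of kappa counts and A3 with 10.0%, and Igkv10-96 led A1 with 9.13%. Igkv1-135 led B1 with 7.17% and B2 with 6.62%, and Igkv6-15 led B3 with 6.73%, each with an interval of at most 0.270 points to either side. The inverse Simpson number of kappa segments was 20.4, 18.2 and 23.2 in set A and 32.7, 33.0 and 38.0 in B.

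Even these leaders were uneven within set A. Igkv6-23 had 11, 7717 and 4781 counts in set A and 4047, 3608 and 2683 in B. Igkv1-135 had 1666, 6020 and 18 counts in set A and 6799, 5062 and 3424 in B. Igkv6-15 was the steadiest of them, with 3245, 3819 and 1664 counts in set A and 5707, 3099 and 5188 in B. In 1 A library each, Igkv6-23 and Igkv1-135 fell to 11 and 18 counts, while no B library of either lay under 2683.

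The remaining kappa segments found in all 6 libraries had the following counts. Igkv12-44 had 3291, 1288 and 3055 in set A and 3585, 1934 and 2097 in B, and Igkv9-120 had 5082, 1057 and 687 in set A and 4505, 1205 and 1581 in B. Igkv4-91 had 3603, 1335 and 759 in set A and 772, 1232 and 357 in B, and Igkv13-84 had 671, 2221 and 120 in set A and 1375, 527 and 890 in B. Each of these 4 overlapped between the sets. Igkv6-17 had 1068, 2197 and 37 counts in set A and 2873, 3345 and 227 in B, and Igkv6-25 had 1780, 114 and 46 in set A and 38, 1692 and 1027 in B. Igkv10-94 had 224, 292 and 613 in set A and 1033, 1835 and 419 in B. Igkv6-17 and Igkv6-25 each fell under 50 counts in at least 1 library, and Igkv10-94 did not.

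The light chain balance was nearly the same in all libraries. Kappa segments held 84.3%, 84.2% and 87.2% of light chain V counts in set A (85.3 ± 1.73%, SD, n = 3) and 84.9%, 83.5% and 86.4% in B (84.9 ± 1.42%, SD, n = 3). Lambda held the remainder. By constant region genes, which the choice of segments did not use, kappa held 63.4%, 64.8% and 68.5% in set A and 65.0%, 66.4% and 68.0% in B. The difference of 0.920 percentage points between B and A was within the spread of the libraries (exact two-sided permutation test, p = 0.7, also 0.7 after adjustment over the 2 shares tested, n = 3 each; 0.1 is the smallest p this design allows). Without A1 the difference was -0.160 points. That test was chosen after the values were seen, 1 of 2 such tests.

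Kappa weighed less by constant genes than by V segments, in every library. For each 100 Igkc counts there were 62.8 to 70.7 Igkv counts, and for each 100 Iglc counts 21.1 to 27.6 Iglv counts. V and constant genes differ in length and in how similar their copies are, and the part of either in this gap was not tested.

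**Figure D4:**
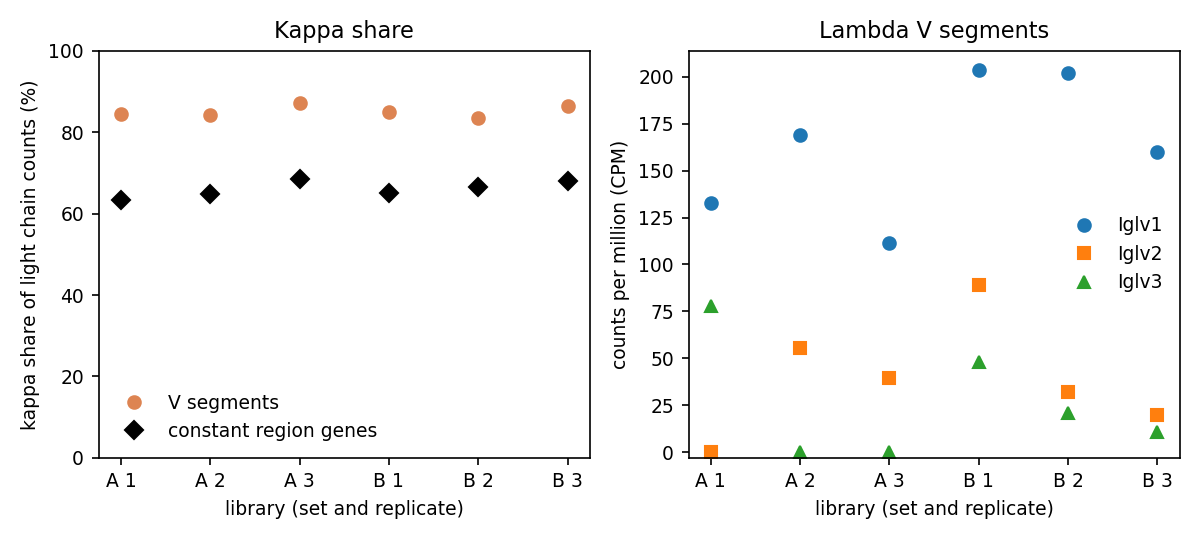
Kappa share of light chain counts in percent for each library, by V segments and by constant region genes, and the level of the 3 lambda V segments in CPM. The V share lies at 83.5% to 87.2% and the constant share at 63.4% to 68.5%, with the sets overlapping in each, and Iglv1 is the highest lambda segment in every library.

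Of the lambda segments only Iglv1 was high in every library. It held 63.1%, 75.2% and 73.9% of lambda V counts in set A and 59.8%, 79.3% and 84.0% in B. Iglv2 had 0, 2933 and 1817 counts in set A and 4426, 1887 and 1271 in B, so it was at 0 in A1 alone. Iglv3 had 4280, 5 and 2 counts in set A and 2378, 1237 and 684 in B, so it was high in A1 alone among the A libraries. Iglv3 is 48.8% identical to Iglv1 over the window used. Iglv2, the near copy of Iglv1, was thus at 0 in a library with 7309 counts of Iglv1.

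Constant regions were those of IgM and IgD with both light chains. Ighm, the constant region of IgM, had 73244, 86798 and 67394 counts in set A and 72014, 121418 and 97983 in B, at 1477 ± 157 and 1678 ± 328 CPM (SD, n = 3 each). Igkc, the kappa constant region, had 94247, 97663 and 70251 counts in set A and 139624, 108192 and 122916 in B. Ighd, the constant region of IgD, had 19343, 28284 and 8542 counts in set A and 8275, 12407 and 6906 in B. In CPM all 3 overlapped between the sets.

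The constant regions of switched antibody classes were nearly absent from the counts. Ighg2c, of an IgG class, had 4, 0 and 6 counts in set A and 0, 0 and 165 in B. Ighg1 had 4 counts in B2 alone and Igha, of IgA, 4 counts in A1 alone. Ighe, the constant region of IgE, the ligand of the receptor used in the sort, was at 0 in all 6 libraries, as were Ighg2b and Ighg3.

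The lambda constant genes followed their own order. Iglc1 had 7585, 10847 and 6407 counts in set A and 14517, 18174 and 12630 in B, and in CPM A2 (205) lay above B3 (197). Iglc2 had 20857, 27873 and 8924 counts in set A and 37630, 17301 and 29064 in B, and Iglc3 had 25962, 14416 and 16945 in set A and 23136, 18676 and 16037 in B. All 3 overlapped between the sets in CPM, and Iglc2 and Iglc3 are 93.6% identical. Iglc4 was found in B2 alone, with 514 counts, beside 2 in B1.

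No constant region gene passed the test. In edgeR's quasi-likelihood fit over 9196 genes, 0 of 6 tested constant genes had an adjusted p under 0.05, and Ighd alone had an unadjusted p under 0.05. DESeq2 and limma-voom also called 0 of them. Over all genes edgeR called 0.0217%, DESeq2 12.0% higher and 1.1% lower in B, and limma-voom 2.82% higher and 0.0761% lower. Ighd had a log2 fold change of -1.27 (SE 0.50, adjusted p = 0.696), Iglc1 one of 0.62 (SE 0.38), Igkc one of 0.26 (SE 0.22) and Iglc2 one of 0.34 (SE 0.51). Iglc3 stood at -0.23 (SE 0.37) and Ighm at 0.08 (SE 0.18), and size factors of the DESeq2 kind, which shift the median of all genes by -0.10, put Ighm at -0.02.

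IgD weighed more in each A library than in any B library. Ighd held 20.9%, 24.6% and 11.2% of the counts of Ighm and Ighd in set A and 10.3%, 9.27% and 6.58% in B. The difference, -10.2 percentage points, had p = 0.1 in an exact two-sided permutation test (n = 3 each), the smallest p that 3 against 3 libraries can give, and 0.2 after adjustment over the 2 shares tested. With 1 library left out it ran from -14.0 to -7.35 points. Its sign could not change there, since the sets do not overlap.

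Markers of B cells and plasma cells were read beside these levels. Cd79a and Cd79b, the signalling chains of the B cell receptor, stood at 939 ± 339 and 1005 ± 680 CPM in set A and at 1171 ± 164 and 884 ± 61.4 CPM in B (SD, n = 3 each). Ms4a1, which encodes CD20, stood at 198 ± 71.6 and 216 ± 98.3 CPM, and Fcmr, an IgM receptor, at 259 ± 171 and 138 ± 13.6 CPM. Fcmr was higher in each A library than in any B library, and the other 3 overlapped. The B cell transcription factor Pax5 had 6501, 4 and 4 counts in set A and 872, 1244 and 6 in B, and is named here after its values were seen.

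Of 12 genes of plasma cells and secretion 5 were tested and 0 passed in edgeR, with 0 at an unadjusted p under 0.05 and 0 by DESeq2 or limma-voom. Over all genes edgeR called 0.0217%, DESeq2 12.0% higher and 1.1% lower in B, and limma-voom 2.82% higher and 0.0761% lower. The sum of the 12 genes was 542 to 827 CPM in set A and 418 to 801 CPM in B. Xbp1, a secretory stress factor that many cell types express, stood highest by mean CPM (376 ± 110 CPM in set A and 389 ± 127 in B, SD, n = 3 each). Txndc5, which encodes a protein folding enzyme, had 1024, 5121 and 2684 counts in set A and 12006, 8868 and 6054 in B. Mzb1, a folding factor of B cells and plasma cells, had 1935, 5 and 11578 counts in set A and 0, 4172 and 1979 in B, and Creld2 had 8, 6866 and 2785 in set A and 20, 6664 and 3048 in B. Slamf7, a surface receptor of plasma cells and other lymphocytes, had 0, 4814 and 3873 counts in set A and 4, 1017 and 12 in B. These last 3 were thus high in some libraries and at or near 0 in others. Jchain, the joining chain of secreted IgM and IgA, and Derl3 were at 0 in all libraries, and Tnfrsf17, the plasma cell receptor BCMA, had 4 counts in A1 alone. The part of any of these markers in the V segment counts was not tested.

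Few segments were shared by all libraries. Of the 157 segments, 44 (28.0%) reached 10 counts in 1 library only, 35 in 2, 28 in 3, 19 in 4, 19 in 5 and 12 (7.64%) in all 6. The 12 shared segments held 35.9% of all V counts, and the 44 found in 1 library held 4.52%. The number found in every library was 21 without A1 and 19 without A2, which leaves 5 libraries, and 19 at a minimum of 4 counts. For comparison, of the 15976 genes that reached 10 counts somewhere, 27.9% did so in 1 library and 25.1% in all 6. Of the 46 T cell receptor V segments, 31 (67.4%) were in 1 library and 0 in all 6.

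The loci differed in how widely their segments were shared. No heavy segment was found in all libraries, and 3 (Ighv1-53, Ighv1-64 and Ighv9-3) were found in 5. Of the 66 heavy segments 27 were in 1 library, against 17 of the 88 kappa segments. Ighv1-53 had 80, 772 and 0 counts in set A and 506, 367 and 196 in B. The pair Ighv1-62-2 (0, 229 and 0 counts in A, 409, 29 and 10 in B) and Ighv1-71 (0, 264 and 0 in A, 174, 377 and 288 in B), identical over the window used, was found in the same 4 libraries.

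The A libraries shared few segments with each other. A1 and A2, with 46 segments each, had 17 in common (37.0% of each list). A1 and A3 shared 25 segments, 54.3% of those of A1 and 41.7% of those of A3, and A2 and A3 shared 26, 56.5% and 43.3%. Within B, 56 segments were shared by B1 and B2 (70.0% and 61.5%), 67 by B1 and B3 (83.8% and 56.8%) and 68 by B2 and B3 (74.7% and 57.6%). Pairs of an A and a B library had 30 to 48 in common. The number in common depends on the length of both lists, and each A library shared more segments with each B library than with the other A libraries.

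Between the sets, 88 segments were found in both, 9 in A alone and 60 in B alone, of which 36 were in 1 B library. That is 56.1%, 5.73% and 38.2% of the segments, beside 62.7%, 9.03% and 28.3% of the 15976 genes that reached 10 counts somewhere. The difference between these splits was not tested. All 3 A libraries held 13 segments and all 3 B libraries 50. B3, the library with the highest total, alone held 21 of the 44 segments found in a single library, against 10 in B2, 5 in B1, 4 in A1, 1 in A2 and 3 in A3.

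In 7 segments 10 or more counts were reached in all of B and in none of A, and in 0 segments the reverse. The first is 4.46% of the 157 segments, beside 2.17% of the 15976 genes that reached 10 counts somewhere (347 genes), and the reverse held for 0.0626% of those genes (10). Ighv9-1 (625, 686 and 138 counts in B), Igkv12-41 (685, 2019 and 955), Igkv1-88 (817, 449 and 312) and Igkv8-19 (995, 715 and 1427) were at 0 in all A libraries. Set beside a floor of 3 counts per library in A, their mean CPM in B was 149-fold, 357-fold, 164-fold and 309-fold higher, in that order. These ratios compare counted reads of segments picked by these same counts. They are not lower bounds on expression, since the floor covers counting error only. The other 3 had traces in A: Igkv15-103 had 0, 0 and 2 counts in set A and 1902, 638 and 343 in B, and Igkv3-1 had 4, 0 and 0 in set A and 2061, 656 and 230 in B. Igkv19-93, the sole Igkv19 segment, had 0, 4 and 0 counts in set A and 2933, 1201 and 1953 in B.

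These differences did not pass the test over all genes. Of the 157 segments 78 entered edgeR's fit, and 0 were called, with 0.508 the lowest adjusted p. At an unadjusted p under 0.05 there were 7 segments, all higher in B, or 8.97% of those tested, beside 5.05% of all tested genes higher and 1.32% lower in B. Levels did not overlap and were higher in B in 11 of the 78 tested (14.1%), beside 10.2% of all tested genes, and were lower in 0, beside 3.91%. Of the 78 segments 43 were fitted above 0 and 35 below, and their median was 0.17 on the log2 scale, beside -0.06 over all tested genes. The filter keeps a segment that is high in 1 set alone, so these shares are descriptions of the segments that entered.

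Igkv1-88, Ighv9-1, Igkv8-19, Igkv12-41 and Igkv15-103 had the 5 smallest p among the segments in edgeR's fit, each with an adjusted p of 0.508. Of the 88 segments with an adjusted p in DESeq2, 23 were called higher and 1 lower in B, beside 12.0% and 1.1% of the 9270 genes with one. Of the 78 segments in limma-voom's fit 7 were called higher and 0 lower, beside 2.82% and 0.0761% of 9196 genes. The 7 were those found in all of B and none of A, which the filter kept through set B alone. The shares called by either tool are therefore descriptions of segments chosen by these same counts. The segment that DESeq2 called lower was Ighv1-39, with 4, 717 and 205 counts in set A and 0 in all of B. Nothing says that libraries of a set come from separate mice, so p-values measure only their spread, which may be technical.

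Segments fall into families of related sequence. Ighv1, the largest family, held 64.8%, 62.8% and 68.3% of heavy counts in set A and 64.8%, 44.2% and 53.3% in B, with 37 of its 53 functional segments found. Ighv5 held 17.7%, 22.8% and 0.0224% in set A and 19.6%, 12.2% and 27.4% in B, so it was near 0 in A3 alone. Of the 9 functional Ighv2 segments 1 was found, and of Ighv11, Ighv13, Ighv15 and Ighv16 none.

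Among kappa families all 9 Igkv6 segments were found, with 20.9%, 26.6% and 21.2% of kappa counts in set A and 16.9%, 18.7% and 13.5% in B. Igkv4 gave the most segments, 22, with 7.91% to 17.3% of kappa counts. Igkv1 held 5.73%, 9.55% and 6.69% in set A and 12.8%, 15.7% and 11.5% in B, and Igkv3 held 7.63%, 2.76% and 3.35% in set A and 11.3%, 8.93% and 9.13% in B. Igkv6 was higher in each A library, and Igkv1 and Igkv3 in each B library. Igkv15 and Igkv19, with 1 detected segment each, were also higher in each B library. The shares of all other detected kappa families overlapped between the sets. How many families would separate in this way without a difference between the sets was not tested. These shares use the counts that chose the segments and have no test.

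Detected segments came from the whole length of both large loci. Functional Ighv segments were divided by their order from the J segments into 3 parts of near-equal number, between 149 and 2570 kb away. In the part next to the J segments 17 of 38 were found (44.7%), in the middle part 19 of 38 (50%) and in the far part 26 of 37 (70.3%). In the kappa locus, where segments lie 18.4 to 3166 kb from the J segments, the parts gave 27 of 34 (79.4%), 28 of 33 (84.8%) and 29 of 33 (87.9%). Kappa segments lie in both orientations, and 32 of 38 (84.2%) on the plus strand and 52 of 62 (83.9%) on the minus strand were found.

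The share of counts by position varied more between heavy than between kappa libraries. The far part of the heavy locus held 23.7%, 56.9% and 58.5% of functional heavy counts in set A and 53.8%, 32.5% and 36.2% in B. The middle part held 45.6% in A1, where Ighv1-9 lies in it, and 12.5% to 31.3% elsewhere. In the kappa locus the far part held 42.6%, 43.2% and 32.2% in set A and 39.3%, 39.8% and 38.7% in B.

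**Figure D5:**
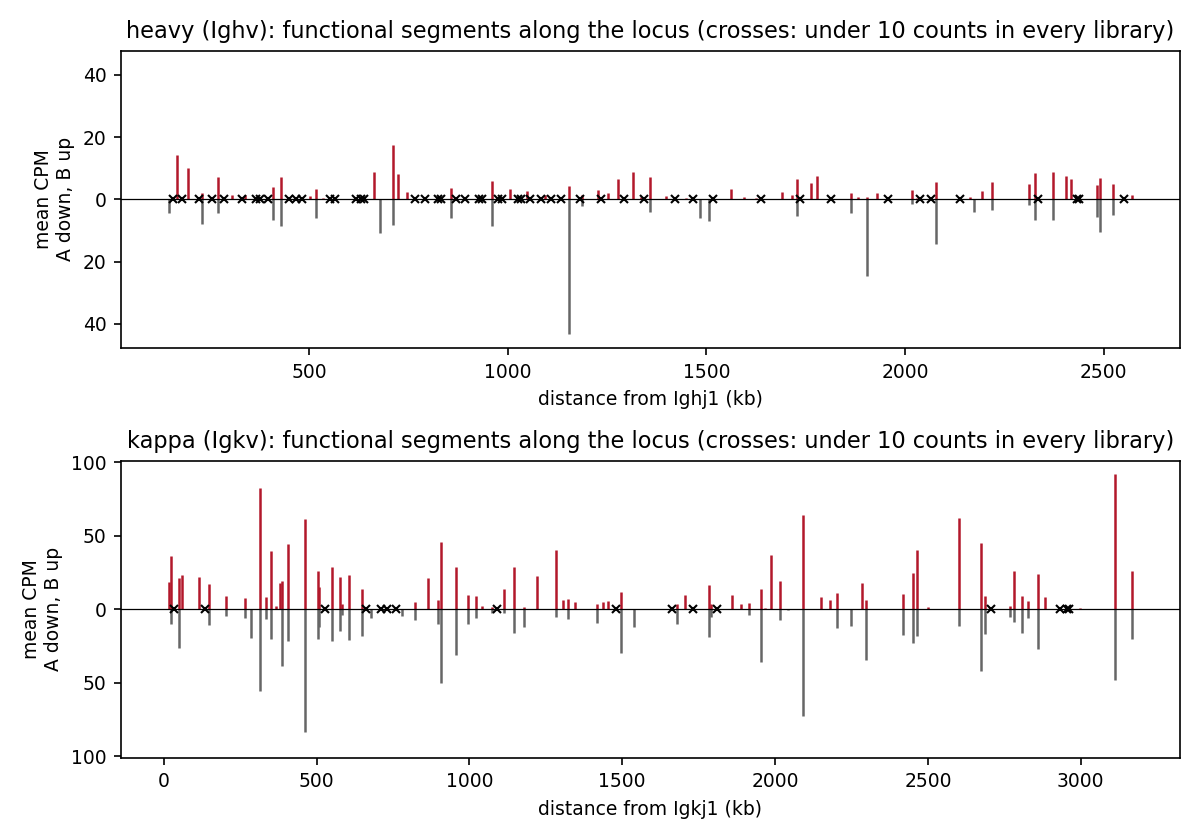
Mean CPM of functional Ighv (top) and Igkv (bottom) segments, set B drawn upward in red and set A downward in grey, against the distance from the first J segment in kb, with crosses for segments under 10 counts in every library. Detected segments lie along both loci, and the tallest heavy line is Ighv1-9 in set A (43.5 CPM, nearly all from A1).

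As a description over 6 libraries, 23 of 9188 genes shared the exact order of the summed kappa V level (Spearman rho of 1), and by Pearson correlation the first were Gm5160 (0.988), Gm44870 (0.889), Gpcpd1 (0.823), Rdh11 (0.819) and Mrpl23-ps1 (0.812). For Ighm 9 of 9187 genes did so, led by Gm38317 (0.893), Smad1 (0.870), Cyp11a1 (0.858), Cdc26 (0.801) and Tsen54 (0.796). With 6 libraries many genes share an order.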

How the data were processed

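RNA from sorted cells was measured in 6 libraries, grouped by their titles into sets A and B of 3 each. The authors deposited raw counts per Ensembl gene, not normalized. The submitters' processing notes list DESeq2, HISAT2 2.2.1 and cutadapt 1.9, without roles. Counting program, build, annotation and strand use: not given in the sources used here.

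Symbols, biotypes, positions and sequences came from GENCODE M21 (GRCm38), in which 55141 of 55401 IDs were found. CPM are counts divided by a library's total, times 1000000. edgeR 4.0.16 (filterByExpr, TMM, robust quasi-likelihood, Benjamini-Hochberg over 9196 genes) compared B with A and was tested on simulated data. The simulated counts varied less between libraries than the V segments here, so that check does not cover them. DESeq2 1.42.0, limma-voom 3.58.1, other scalings and filters, a minimum of 4 counts, V families, a replicate block and leaving out each library were alternatives. Shares carry 95% Wilson intervals (SciPy 1.17.1), which cover counting error only, as do floors of 3 counts. Sequence identity was taken from global alignments of the last 280 bases. Promoters were not used here.

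Segments named with values were, per locus, the leaders of a library or the 3 highest by mean CPM, those in every library, those past the threshold or else the 5 smallest p, those next to the limit of 10 counts, all constant region genes, and up to 4 genes per marker list. Beyond that limit, all genes of the basophil list and the 9 tested of the T cell list were named. They were grouped by overlap after their values were seen. Igkv3-1, Igkv19-93, Ighv1-39, Ighv1-53, the pair Ighv1-71 and Ighv1-62-2, the pseudogenes, and Fcer1a, Pax5, Slamf7, Jchain, Derl3 and Tnfrsf17, all 6 genes of the recombination list and the J segments were named after their values were seen. The segments and lists were chosen with earlier results of these data known. The plasmacytoid dendritic cell list summed to 466 to 1298 CPM in A and 817 to 1089 CPM in B.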

Additional observations from a re-analysis of the deposited data

How the results depend on the processing

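Over 292 recomputed values, 253 kept their direction and their side of the threshold or stayed within the spread of the libraries, 10 passed a threshold they had not passed, 23 moved and 6 changed sign. The 10 are the 5 named segments (Igkv1-88, Ighv9-1, Igkv8-19, Igkv12-41 and Igkv15-103), with adjusted p from 8.95e-05 to 0.000614 by DESeq2 and 0.0167 to 0.0270 by limma-voom. Their adjusted p ran from 8.95e-05 to 0.998 over all alternatives. Part of the 253 was fixed in advance. The mean of a set does not change when a library of the other set is left out. With 3 libraries, leaving out 1 of its own cannot move it by a full SD. Ighv9-1, Igkv12-41, Igkv1-88 and Igkv8-19, at 0 in all of A, could not change sign. The tally is therefore no measure of robustness. Over all genes edgeR called 2, DESeq2 1218, limma-voom 266, and edgeR 0 to 1 with 1 library left out (1 without B3, 0 without any other). Of the V segments edgeR called 0, DESeq2 24, limma-voom 7, and edgeR 0 with any 1 library left out. The cause of these gaps between tools was not tested. No sign change was near a call: Ighm stood at -0.0232 with size factors of the DESeq2 kind and -0.0226 by DESeq2, and ran from -0.0546 (without B2) to 0.173 with 1 library left out. Iglc2 ran from -0.10 (without B1) to 0.69, Iglc3 from -0.519 to 0.0590 (without A1), and the kappa share by constant genes, B minus A, from -0.160 (without A1) to 2.40 points.

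At a minimum of 4 counts set A had a mean of 62.3 segments and 19 segments were in every library. Counted as V families, there were 20.7 in A and 27.3 in B, 4 of 33 families in 1 library alone, and top 3 shares of 39.4% in A and 33.7% in B. By constant genes the kappa share was 65.6% in A and 66.5% in B. With 1 library left out, segments per library ran from 46.0 to 53.0 in A and 85.5 to 104.5 in B, the segments in every library from 12 to 21 (21 without A1, 19 without A2), and those in 1 library alone from 44 to 50. In the same way top 3 shares ran from 21.02% to 24.3% in A and 18.6% to 19.4% in B, and kappa V shares from 84.3% to 85.8% and 84.2% to 85.6%. Counts per kb, a choice made after seeing the data, gave top 3 shares of 22.8% and 18.3%.

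The sets share replicate numbers. Deviations of same-numbered libraries correlated at 0.0100, -0.0244 and 0.00698, against -0.0344 to 0.0339 for other pairs. Same-numbered libraries were thus no more alike than others. Whether the libraries were paired cannot be read from these correlations. With a replicate block 0 genes were called. A segment with 0 counts in a library may have been under the floor of 3 counts, 0.0469 to 0.0650 CPM.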

Other observations

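Genes of V(D)J recombination and of the surrogate light chain, which mark developing B cells, were seen in set B alone above 2 counts. Vpreb1, a surrogate light chain gene, had 1788 counts in B1 and 55 in B3. Vpreb2 had 14 counts in B1 and 1142 in B3, and Igll1, its partner chain, had 589 counts in B3 alone. Rag1, of the recombinase, had 9 counts in B1 and 302 in B3. Rag2, the other recombinase subunit, was at 0 in all libraries, and Dntt, which adds bases at the joins, had 10 counts in B3 alone. B2 was at 0 for all 6 genes, although it held 91 V segments. None of the 6 entered edgeR's fit.

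J segments, the short joining pieces, had few counts of their own. Ighj4 had 0 counts in all of A and 40, 14 and 28 in B, and Igkj1 had 0 in all of A and 12, 44 and 7 in B. Iglj1 had 0, 33 and 28 counts in set A and 15, 34 and 16 in B. Iglj2 had 1 count in each library but B3, where it had 744, and in the GENCODE M21 annotation it lies within Iglc2, on the same strand. These genes were named after their values were seen.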
